A study of Oncorhynchus mykiss with 6 samples.

Results

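The microRNA (miRNA) miR-146 was examined in the small RNA of rainbow trout dorsal skin. Its members were all table entries whose name, without the species prefix, reads miR-146 with no further digit, of whichever arm, letter or length, and 15 of 1426 entries met this rule. The libraries came from 3 yellow mutant (YR_S) and 3 wild-type (WR_S) fish, all female, kept in 1 pond and sampled at 12 months post hatching, and each library was made from 1 dorsal skin. The yellow mutant differs from the wild type in body colour, and the sources used here name no mutated gene. The study compared the fish to look for differences in skin immunity.

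miR-146 is a small RNA that loads into an Argonaute protein and represses messenger RNAs that pair with its seed, the bases 2 to 8 from its 5′ end. In mammals it is known as a brake on innate immune signalling. Its transcription is switched on by NF-kB downstream of Toll-like receptors. In turn it represses TRAF6 and IRAK1, proteins that carry the Toll-like receptor signal to NF-kB. Both arms of its hairpin can be sequenced, the 5p arm being the guide strand in mammals and the 3p arm its partner.

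The sequences that separate the members are given here because the entry names do not, since each name was taken from the species whose database miRNA matched (ssa for Atlantic salmon, dre for zebrafish, gmo for Atlantic cod, ola for medaka, gga for chicken). In a suffix, L and R give bases added or removed at the 5′ and 3′ ends and ss marks a base change from the database miRNA. All sequences are from the deposited table, 5′ to 3′ in DNA letters, with bases 2 to 8 in capitals.
ssa-miR-146a-5p: tGAGAACTgaattccatagatgg
ssa-miR-146b-5p_R+1_1ss12GT: tGAGAACTgaattccatagatggc
gmo-miR-146-5p_L+1: cTGAGAACtgaattccatagatgg
ola-miR-146a-5p_L+2R-2: aATGAGAActgaattccatagatgg
ssa-miR-146d-5p: tGAGAACTgaattccaagggtt
ssa-miR-146d-5p_L+1: tTGAGAACtgaattccaagggtt
ssa-miR-146a-3p_R-1: aTCTATGGgctcagttcttctg
ssa-miR-146d-3p: cCCATGGAgctcagttcttaag
PC-3p-3527_813: tGAGAACTagcgcaccattggt

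The 15 entries held 13 distinct sequences, which fell into 2 kinds of 5p arm and the 3p arm. The 5p sequences of ssa-miR-146a-5p (23 bases) and ssa-miR-146d-5p (22 bases) share their first 16 bases and differ only after them. By the first 20 bases of each, 5 entries were of the miR-146a-5p type and 4 of the miR-146d-5p type. The letter in a name did not always follow the sequence, since ssa-miR-146b-5p_R+1_1ss12GT is ssa-miR-146a-5p with 1 further base at its 3′ end. There were 5 entries of the 3p arm. Both ssa-miR-146a-3p_R-1 and ssa-miR-146d-3p hold TCAGTTCT, the reverse complement of the AGAACTGA that begins at base 3 of either 5p sequence. The remaining entry, gga-mir-146b-p5_1ss2AG, matched neither 5p type.

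The seed GAGAACT was carried at bases 2 to 8 by 4 of the 9 5p entries. In the other 5 the same letters were moved by 1 or 2 bases, because these entries have added bases at the 5′ end, and their own bases 2 to 8 therefore read TGAGAAC or ATGAGAA. Outside miR-146, 1 entry of the table had GAGAACT at bases 2 to 8, the predicted candidate PC-3p-3527_813. It was at 65.1, 22.95 and 99.6 CPM in YR_S replicates 1, 2 and 3, against 41.2, 0 and 57.2 CPM in WR_S, where CPM is the estimated count scaled to 1e6 per library with edgeR's TMM factors. The groups overlapped (edgeR log2 fold change 0.93 ± 1.24 SE, adjusted p = 0.868).

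The libraries held 1442631 to 5089802 summed counts, with YR_S replicate 1 the shallowest, where 3 counts stood for 1.95 CPM against 0.578 to 0.765 CPM in the others. WR_S replicate 3 stood apart in miRNAs of other tissues. The hepatocyte family miR-122 summed to 3404 CPM there and to 5.86 to 51.3 CPM in the other 5 libraries, and the skeletal muscle families miR-1, miR-206, miR-133 and miR-499 to 12616 CPM against 2007 to 6964 CPM. The skin epithelium families miR-200, miR-203 and miR-205 were present in every library, at 22779 to 34439 CPM in YR_S and 25913 to 36021 CPM in WR_S. The part of other tissues in the miR-146 values was not tested.

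miR-146 was an abundant miRNA of trout skin in both groups, and nearly all of it was a single sequence. Its 15 entries summed to 17685, 16274 and 12504 CPM in YR_S replicates 1, 2 and 3, against 16786, 17582 and 8195 CPM in WR_S. The groups overlapped, and the lowest library of the 6 was WR_S replicate 3. The mean was 15488 ± 2679 CPM in YR_S and 14188 ± 5205 CPM in WR_S (SD, n = 3 each), a difference of 1300.13 CPM that was smaller than the SD of either group (exact permutation test over the libraries, two-sided p = 0.80, where 3 against 3 cannot give less than 0.10). Its sign rested on single libraries: without WR_S replicate 3 the difference was -3250 CPM (exact permutation p = 0.20), and without YR_S replicate 1 it was -869 CPM. Of all counts in a library, miR-146 took 1.88%, 1.46% and 1.18% in YR_S and 1.71%, 1.85% and 0.847% in WR_S, with 95% Wilson intervals of at most 0.0222 percentage points either side. Intervals and floors cover counting error only.

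**Figure D1:**
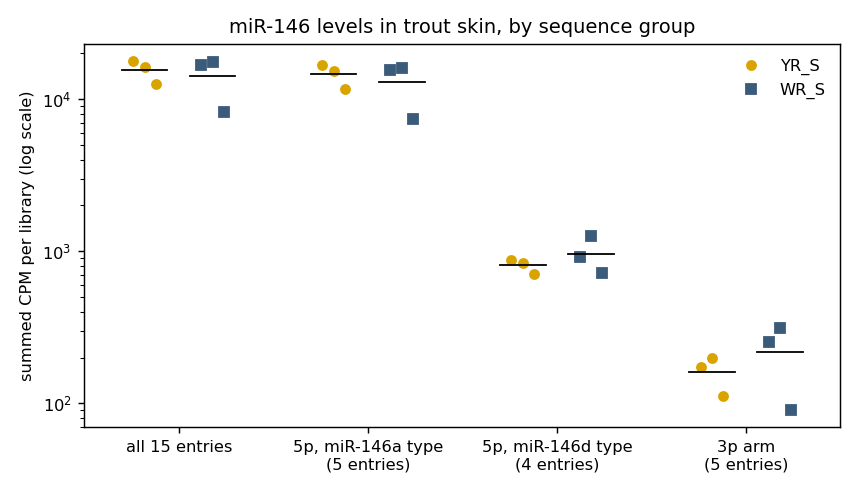
Summed CPM of miR-146 (log scale) in each library of YR_S (circles) and WR_S (squares), for all entries and by sequence group, with bars at the group means (n = 3 each). The 5p arm of the miR-146a type carries nearly the whole sum, and the groups overlap in each column.

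ssa-miR-146a-5p alone was at 16485, 15119 and 11606 CPM in the YR_S libraries, against 15411, 15880 and 7346 CPM in WR_S. By count it ranked 13, 16 and 20 among all entries in YR_S replicates 1, 2 and 3, and 14, 14 and 31 in WR_S. Its log2 fold change was 0.16 ± 0.31 SE with a 95% interval of -0.54 to 0.87 (edgeR's quasi-likelihood test, adjusted p = 0.934), which spans 0.686-fold to 1.82-fold. For the family sum the log2 fold change was 0.05 ± 0.31 SE, interval -0.66 to 0.76 (adjusted p = 0.980). In these fits of all 6 libraries, a 2-fold change in either direction lies outside both intervals. Both signs turned with the same libraries. Without WR_S replicate 3 the log2 fold change was -0.26 for ssa-miR-146a-5p and -0.29 for the sum, and without YR_S replicate 1 it was -0.06 and -0.09. With any other library left out it was 0.13 to 0.26 for ssa-miR-146a-5p and 0.07 to 0.22 for the sum. The SE then reached 0.36 and 0.37 (without YR_S replicate 2), so those fits bound the change less tightly.

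The miR-146d type was the minor 5p sequence. ssa-miR-146d-5p was at 745, 705 and 603 CPM in the YR_S libraries, against 751, 958 and 607 CPM in the WR_S libraries (log2 fold change -0.18 ± 0.24 SE, edgeR adjusted p = 0.875). Its counterpart with 1 added 5′ base was listed under the names ssa-miR-146d-5p_L+1 and dre-miR-146b_L+1_1ss23GT, which hold the same sequence and the same counts; the sources do not say how their reads were assigned. Together these summed to 137, 128 and 107 CPM in YR_S and to 163, 294 and 113 CPM in WR_S. The WR_S value of replicate 2 was the highest of the 6, and the groups overlapped. Each of the pair had a log2 fold change of -0.62 ± 0.38 SE, with the smallest p among the members (unadjusted p = 0.143, edgeR adjusted p = 0.682), and with 1 library left out the fold change ranged from -1.02 (without WR_S replicate 3, edgeR adjusted p = 0.400) to -0.24 (without WR_S replicate 2).

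The longer forms of the miR-146a type were scarcer. The sequence with 1 added 5′ base, listed under both gmo-miR-146-5p_L+1 and ola-miR-146a-5p_L+1R-2, summed to 121, 105 and 65.8 CPM in YR_S and to 162, 112 and 33.2 CPM in WR_S. With 2 added bases, ola-miR-146a-5p_L+2R-2 had a mean of 2.41 ± 0.753 CPM in YR_S fish and 2.49 ± 1.56 CPM in WR_S fish. The 3′ extended ssa-miR-146b-5p_R+1_1ss12GT was at 21.2, 16.4 and 8.32 CPM in the YR_S libraries, against 43.1, 19.2 and 4.45 CPM in WR_S. Its log2 fold change of -0.58 ± 0.74 SE turned to 0.28 without WR_S replicate 1. In all 3 sequences the WR_S libraries spanned a wider range than the YR_S libraries and enclosed them.

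Of the 3p arm, ssa-miR-146a-3p_R-1 was the only entry above a mean of 10 CPM. It was at 167, 189 and 107 CPM in the YR_S libraries, against 244, 295 and 85.8 CPM in the WR_S libraries (log2 fold change -0.43 ± 0.46 SE, edgeR adjusted p = 0.852). With 1 library left out the value ranged from -0.95 (without WR_S replicate 3) to -0.20 (without WR_S replicate 2). The other 4 entries of the 3p arm lay between 0 and 12.7 CPM in every library. ssa-miR-146d-3p had 9, 5 and 8 counts in YR_S and 15, 60 and 4 in WR_S, and its log2 fold change of -0.98 ± 1.02 SE turned to 0.51 without WR_S replicate 2. ssa-miR-146a-3-3p, ssa-miR-146b-3p_L-1_1ss19TA and ssa-miR-146d-2-3p_R-1_1ss20AT had at most 22 counts in any library. Their log2 fold changes were -1.08 ± 1.28 SE, -0.07 ± 1.05 SE and 0.84 ± 1.3 SE, so that only large differences were detectable at this depth. For ssa-miR-146a-3-3p the value ranged from -5.92 to -0.55 with 1 library left out. The value of -5.92 was without YR_S replicate 2, which held all 9 counts of YR_S, and a fitted size against a group at 0 is no bound.

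Of the 15 entries 13 were above 0 in at least 3 libraries and were tested. The other 2 were above 0 in 1 library each, with 4 counts of gga-mir-146b-p5_1ss2AG in WR_S replicate 1 and 5 counts of dre-miR-146b_R+1_1ss22GA in WR_S replicate 2. At an adjusted p below 0.05 edgeR called 0 of the 13, against 0% of all 1085 entries tested, and 0 of the 13 reached an unadjusted p below 0.05, which 113 of all entries did. DESeq2 also called 0 of the 13 at an adjusted p below 0.05 (36 of all entries) and gave 0 at an unadjusted p below 0.05 (115 of all entries). With limma on log2(deposited signal + 1) it was 0 of the 13 by either rule, against 0 of all entries adjusted and 129 unadjusted. At the thresholds the study used for miRNAs, a log2 fold change of 1 or more in size together with an unadjusted p under 0.05, 0 members were higher and 0 lower in YR_S, against 1.75% and 6.45% of all entries tested. The CPM of the groups overlapped for every one of the 13, whereas 8.29% of all entries were higher and 9.03% lower in YR_S without overlap. The fitted fold change was below 0 for 11 of the 13, against 52.6% of all entries tested. The median of the 13 was -0.18 on the log2 scale, against -0.03 over all entries. The 13 include 2 pairs with the same counts and are not independent measurements of miR-146.

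**Figure D2:**
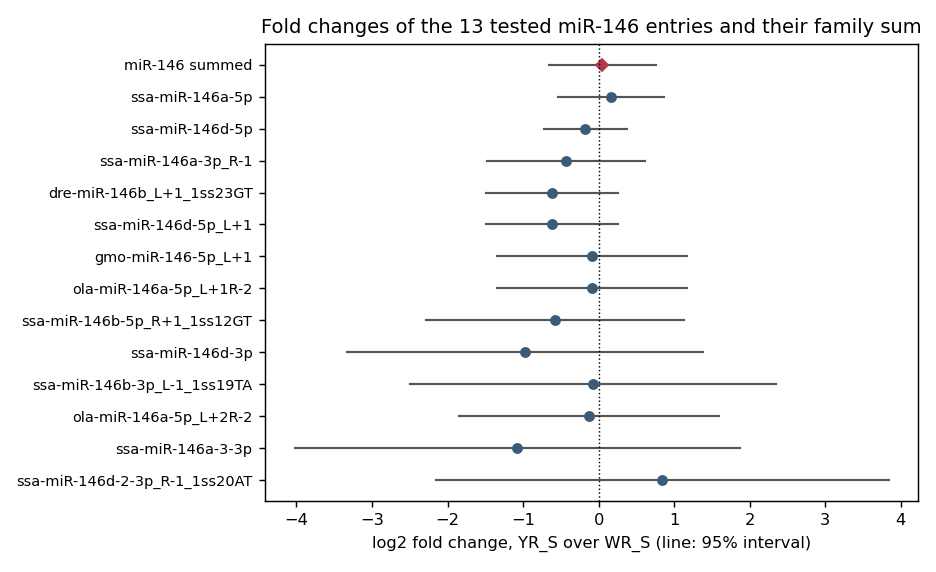
Log2 fold change of YR_S over WR_S with its 95% interval for the family sum (diamond) and each of the 13 tested miR-146 entries (circles), in order of abundance (edgeR, 3 libraries a group). All intervals include 0, and they widen towards the scarce entries, from -0.54 to 0.87 for ssa-miR-146a-5p to -2.15 to 3.84 for ssa-miR-146d-2-3p_R-1_1ss20AT.

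The share of miR-146 held by its main sequence, unlike its level, did not overlap between the groups. ssa-miR-146a-5p held 93.2%, 92.9% and 92.8% of the miR-146 counts in YR_S replicates 1, 2 and 3, against 91.8%, 90.3% and 89.6% in WR_S. The mean was 93.0% ± 0.209 in YR_S and 90.6% ± 1.11 in WR_S (SD, n = 3 each), and the 95% Wilson intervals reached at most 0.304 percentage points either side. The difference of 2.39 percentage points had an exact two-sided permutation p of 0.10, the smallest that 3 libraries against 3 can give, so the design could not place it below 0.05. With any 1 library left out it was 1.91 to 2.997 points (exact permutation p = 0.10 or 0.20). A share of this kind is taken within a library and does not change with depth or scaling.

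The rest of the sum was made up mainly of the miR-146d type, the 3p arm and the longer miR-146a forms. The shares of the miR-146d type and of the 3p arm each overlapped between the groups. The miR-146d-5p type made up 4.98%, 5.11% and 5.68% of miR-146 in YR_S, against 5.44%, 7.13% and 8.79% in WR_S. There were 18.9, 18.3 and 16.5 counts of the miR-146a-5p type for each count of the miR-146d-5p type in YR_S, and 17.1, 12.8 and 10.3 in WR_S. WR_S replicate 3, the library with the most miR-122, had the lowest such ratio, and WR_S replicate 1 lay within the range of YR_S. The 3p arm made up 0.979%, 1.23% and 0.893% in YR_S, against 1.499%, 1.79% and 1.10% in WR_S.

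Forms with added 5′ bases, whose seed is moved, were far more frequent in the miR-146d type than in the miR-146a type. With both names of each pair counted, they made up 15.5%, 15.3% and 15.1% of the miR-146d-5p type in YR_S, against 17.8%, 23.4% and 15.7% in WR_S. Of the miR-146a-5p type they made up 0.748%, 0.705% and 0.579% in YR_S, against 1.06%, 0.719% and 0.460% in WR_S. The share was 16.7 to 34.1 times higher in the miR-146d type, and higher in 6 of 6 libraries. Between the groups the miR-146d shares did not overlap, but the nearest libraries, YR_S replicate 1 and WR_S replicate 3, were 15.5% and 15.7% with Wilson intervals of up to 1.93 points either side, so they cannot be told apart at this depth. Of all 5p counts, forms with added 5′ bases made up 1.49%, 1.46% and 1.41% in YR_S, against 1.99%, 2.37% and 1.81% in WR_S, without overlap and with Wilson intervals of at most 0.145 points either side. This share also moves with the share of the miR-146d type. Both comparisons between the groups were chosen after their values were seen and were given no test.

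**Figure D3:**
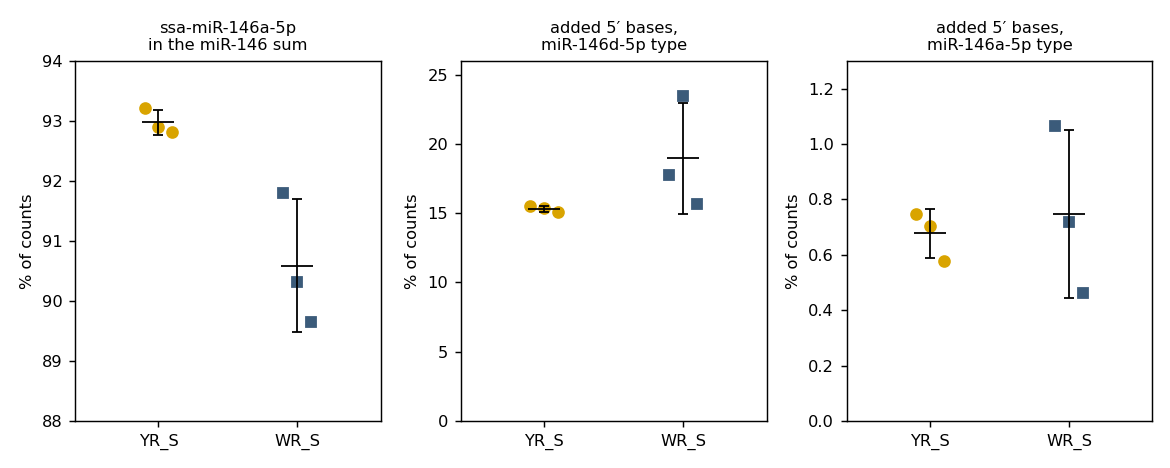
Shares of counts in each library of YR_S (circles) and WR_S (squares), with mean and SD (n = 3 each): ssa-miR-146a-5p in the miR-146 sum (axis from 88%), and forms with added 5′ bases in each 5p type. The YR_S libraries lie between 92.8% and 93.2% in the left panel, above the WR_S libraries at 89.6% to 91.8%.

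Other miRNAs of innate immune signalling were set beside miR-146. They were miR-155, miR-132, miR-212, miR-21, miR-9, miR-223, miR-187 and miR-125, which have been studied in the NF-kB and Toll-like receptor pathways of mammals, with miR-147 having no entry in the table. None of their 57 tested entries passed the adjustment, and their median log2 fold change was -0.08, against -0.03 over all entries. At the study's thresholds 0 of the 57 were higher and 1 was lower, against 1.75% and 6.45% of all entries tested. The lower one was dre-miR-155_R+3, a length variant of the miRNA that promotes inflammatory responses in mammalian macrophages and lymphocytes. It had 0 counts in all 3 YR_S libraries and 6, 19 and 4 in WR_S (edgeR adjusted p = 0.273), and it passed the filter only through WR_S. These WR_S counts stood for 1.16, 4.04 and 0.847 CPM. A floor of 3 counts is 1.95 CPM in YR_S replicate 1, above WR_S replicates 1 and 3, so no smallest size of the difference is given. The main form ssa-miR-155-5p was at 56.6, 26.5 and 40.7 CPM in the YR_S libraries, against 72.4, 161 and 31.8 CPM in the WR_S libraries (log2 fold change -1.11, edgeR adjusted p = 0.607), and its groups overlapped.

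In summed CPM miR-146 ranked below miR-21, miR-125 and miR-181 and above the other immune families compared. The family miR-21, induced in inflamed tissue and in repair, summed to 106821, 133069 and 99807 CPM in YR_S and to 139321, 163579 and 83442 CPM in WR_S. Its most abundant entries, tni-miR-21 and ssa-miR-21b-5p, hold the same counts and had a log2 fold change of -0.18 ± 0.27 SE (edgeR adjusted p = 0.888). There were 0.166, 0.122 and 0.125 counts of miR-146 for each count of miR-21 in YR_S, against 0.120, 0.107 and 0.0982 in WR_S. These ratios did not overlap, by a margin of 0.122 to 0.120, and were given no test because they were chosen after their values were seen. The ratios to miR-462 and miR-731 together and to miR-181 did overlap. Ratios to the remaining NF-kB and Toll-like receptor families, miR-155 among them, were not taken. To miR-462 and miR-731 together they were 0.944, 2.63 and 1.62 in YR_S, against 0.935, 1.09 and 1.87 in WR_S. To miR-181 they were 0.504, 0.705 and 0.372 in YR_S, against 0.538, 0.547 and 0.359 in WR_S.

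The teleost immune cluster of miR-462 and miR-731, known in fish as responsive to interferon and virus, varied more between libraries than miR-146. miR-462 summed to 13960, 4634 and 6187 CPM in YR_S and to 13944, 12778 and 3452 CPM in WR_S, and miR-731 to 4780, 1562 and 1552 CPM in YR_S and to 4012, 3422 and 927 CPM in WR_S. As for miR-146, WR_S replicate 3 was the lowest library for both. Of the 9 tested entries of the cluster 0 were higher and 0 lower at the study's thresholds, against 1.75% and 6.45% of all entries tested. In direction 1 of the 9 was above 0 and 8 were below, with a median of -0.38, against -0.03 over all entries. The most abundant, ssa-miR-462a-5p and ssa-miR-731-5p, had log2 fold changes of -0.38 ± 0.59 SE and -0.09 ± 0.63 SE. The family miR-181, a regulator of lymphocyte development in mammals, had a mean of 30580 ± 6543 CPM in YR_S libraries and 28731 ± 5111 CPM in WR_S libraries, with 0 of 27 tested entries past the thresholds. Its most abundant entries, ssa-miR-181a-5p_R-1 and oni-miR-181c, hold the same counts (log2 fold change -0.01 ± 0.30 SE). Of its 27 tested entries 17 were above 0 and 10 below (median 0.14).

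**Figure D4:**
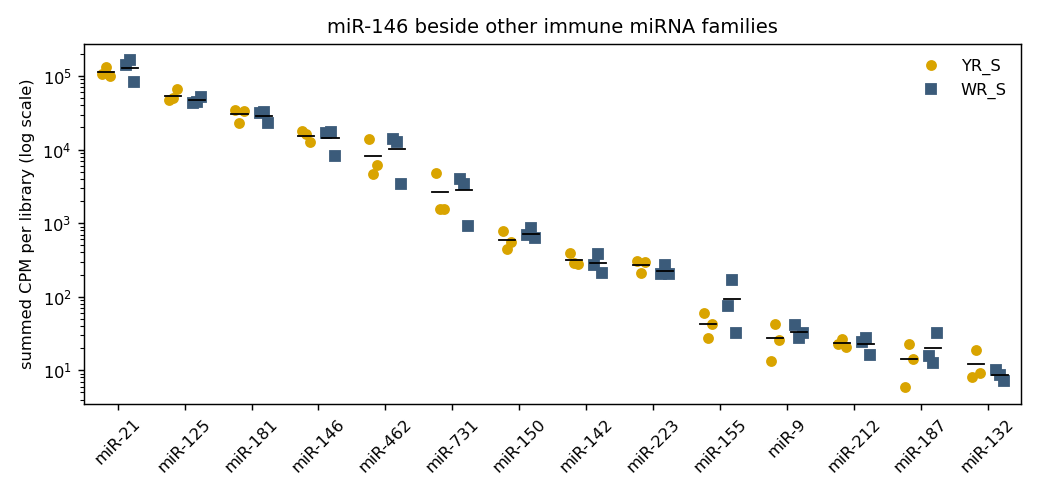
Summed CPM per library (log scale) of miR-146 and of 13 other immune miRNA families in YR_S (circles) and WR_S (squares), ordered by abundance, with bars at the group means (n = 3 each). miR-146 is the fourth most abundant, and the groups overlap in each family.

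Because miR-146 is expressed by leukocytes as well as by other cells, the leukocyte miRNAs miR-142, miR-150 and miR-223 were measured in the same libraries. They summed to 1490, 941 and 1132 CPM in YR_S and to 1167, 1502 and 1036 CPM in WR_S. At the study's thresholds 0 of their 10 tested entries were higher and 0 lower, against 1.75% and 6.45% of all entries tested. With 10 entries, a count of 0 cannot be told from those shares. miR-146 was 11.9, 17.3 and 11.0 times the leukocyte sum in YR_S and 14.4, 11.7 and 7.91 times in WR_S, and the groups overlapped. In bulk skin, fewer cells of a type and less RNA per cell cannot be told apart. The most abundant entries, ipu-miR-150_R+1 and ssa-miR-150-5p_R+2, hold the same counts and had a log2 fold change of -0.27 ± 0.28 SE. The next most abundant, ssa-miR-142a-5p_L+2R-1 and ola-miR-223_R+2, had 0.10 ± 0.28 SE and 0.29 ± 0.29 SE. Of the 10 tested leukocyte entries 6 were above 0 and 4 below, with a median of 0.07, against -0.03 over all entries.

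The markers of other cells were read from the same fit, and none of their entries passed the adjustment. At the study's thresholds 1 of 20 muscle entries was higher and 9 were lower in YR_S, and both liver entries were lower. Further, 1 of 23 epithelial entries was lower and 1 of 8 pigment cell entries was higher, with 0 of the erythrocyte, endothelial and stromal entries in either direction. Of all entries tested 1.75% were higher and 6.45% lower. The liver entry ssa-miR-122-5p_R+1 was at 9.44, 9.77 and 1702 CPM in WR_S replicates 1, 2 and 3, against 2.93 to 25.6 CPM in YR_S. The muscle miRNA ssa-miR-1-3p was at 571.5, 1685 and 3539 CPM in WR_S, against 854, 494 and 308 CPM in YR_S, with overlap. The log2 fold changes of the most abundant entries were 0.08 ± 0.69 SE for gmo-miR-451-5p and its equal abu-miR-451_R+1 (erythrocytes), 0.04 ± 0.26 SE and 0.32 ± 0.23 SE for ssa-miR-126-3p and ssa-miR-126-5p_R+1 (endothelium), -0.01 ± 0.26 SE and -0.49 ± 0.28 SE for ssa-miR-205b-5p and ssa-miR-200b-3p_R-1 (epithelium), and 0.34 ± 0.19 SE for ssa-miR-199a-5p and its equal oha-miR-199c-5p (stroma). For the muscle miRNAs ssa-miR-133b-3p_L-1R+2 and ssa-miR-1-3p they were -1.09 ± 0.59 SE and -1.81 ± 0.63 SE. The liver entries ssa-miR-122-5p_R+1 and xla-miR-122-5p_R+2, which are equal, had -5.56 ± 2.05 SE. For ssa-miR-204-5p and tni-miR-204b_R+2_1ss11TC, listed for pigment cells, the values were 0.87 ± 0.17 SE and 0.92 ± 0.26 SE, and all 8 tested entries of that list were above 0. By the paper's account melanocytes are missing from YR_S skin and xanthophores are fewer there. Whether these values follow the number of pigment cells was not tested. Another stromal entry, ssa-miR-199a-3p, had -0.27 ± 0.28 SE. Of the 33 stromal entries tested 21 were above 0 and 12 below (median 0.05), against 514 and 571 of all entries. The 23 epithelial entries lay mostly lower in YR_S, with 3 above 0 and 20 below (median -0.32). Of the 20 muscle entries 1 was above 0 and 19 below (median -1.62). The erythrocyte entries were 3 above and 3 below, and the endothelial entries 2 above and 1 below.

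The miRNAs whose levels followed miR-146 most closely over the 6 libraries were gmo-miR-221-3p, ola-miR-181b-5p_R-1 and ssa-miR-19d-3p. Pearson's r with the miR-146 sum on the log2(CPM + 1) scale was 0.96, 0.91 and 0.89, the highest among 254 entries that averaged at least 100 CPM, with 1 entry taken per family. gmo-miR-221-3p was at 1548, 1539 and 1280 CPM in the YR_S libraries, against 1395, 1442 and 1066 CPM in WR_S. All 3 shared with miR-146 a minimum in WR_S replicate 3. The 6 points share libraries and scaling, and the correlations are a description.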

How the data were processed

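Total RNA of 6 dorsal skins was made into small RNA libraries with a TruSeq kit and sequenced single-end. With ACGT101-miR the authors filtered the reads of adapters, junk and low-complexity tags, structural RNAs and repeats. They matched tags to miRBase and predicted candidates (names in PC-) with Mireap. The deposited table holds estimated counts per miRNA entry, of which 36.8% of those above 0 were not whole (tolerance 1e-06), and a deposited normalized signal equal to the count times 1 factor per library (0.732 to 2.34). Its columns of group means, fold changes and p-values were not used, nor was 1 line naming no miRNA.

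Estimated counts were rounded, entries above 0 in at least 3 of 6 libraries were kept (1085), and YR_S was compared with WR_S by edgeR 4.0.16 (quasi-likelihood test, TMM, two-sided, Benjamini-Hochberg over all entries tested, R 4.3.3). The miR-146 sum replaced its entries as 1 row in a second fit. SE was obtained as the log2 fold change over the square root of F, and intervals use the fit's degrees of freedom. Single values were compared by exact permutation (scipy 1.17.1). DESeq2 1.42.0 and limma 3.58.1 were alternatives, as were other scalings, filters, merged entries, a replicate block and each library left out. Named were all miR-146 entries (values per library for those averaging at least 10 CPM), the 2 most abundant tested entries of each list, entries sharing the seed, and the 3 most alike over libraries. ssa-miR-155-5p and dre-miR-155_R+3 were named after their values were seen. The members and lists were chosen with earlier results of these data known. The test was checked on simulated data. The p-values measure the spread between 3 fish per group. Genome positions are not given here.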

Additional observations from a re-analysis of the deposited data

How the results depend on the processing

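No alternative brought the miR-146 sum or any of its 13 tested entries past the adjusted threshold. Members at the study's thresholds, which use an unadjusted p, were not counted with a library left out. Their count of 0 is therefore given for all 6 libraries only. Without WR_S replicate 3 the log2 fold change was -1.02 ± 0.34 SE for ssa-miR-146d-5p_L+1 and its equal. For ssa-miR-146b-5p_R+1_1ss12GT it was -1.21 ± 0.51 SE. The log2 fold change of the sum lay near 0 and its sign was not fixed: it was -0.0329 with identical sequences merged, and -0.29 to 0.22 with 1 library left out. The difference in summed CPM was -200.3 with muscle, liver and erythrocyte entries taken out of the library sizes, -274 with identical sequences merged, and -3250 to 2103 with 1 library left out. Replacing the miR-146 entries by their sum moved the TMM factors, and the median log2 fold change of all entries from -0.03 to -0.09. In place of the sum, ssa-miR-146a-5p alone gave 0.08.

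Other signs turned as well. For gmo-miR-146-5p_L+1 and its equal ola-miR-146a-5p_L+1R-2 the value was 0.0469 and 0.0290 in limma with pseudocounts of 1 and 10, and 0.14 with a replicate block, and -0.65 to 0.36 with 1 library left out. For ola-miR-146a-5p_L+2R-2 it was 0.0524 in limma with a pseudocount of 1 and 0.0867 with a replicate block, and -0.67 to 0.24 with 1 library left out. With 1 library left out the range was -0.26 to 0.26 for ssa-miR-146a-5p, -1.21 to 0.28 for ssa-miR-146b-5p_R+1_1ss12GT, -1.84 to 0.51 for ssa-miR-146d-3p and -1.70 to 0.27 for ssa-miR-146b-3p_L-1_1ss19TA. The cause was not tested. The difference in the share of ssa-miR-146a-5p was 2.14 points when identical counts were kept once. Leaving out 1 library could not turn its direction, because the shares of the groups do not overlap.

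Over all entries DESeq2 called 36 where edgeR called 0. The 89 entries at the study's thresholds became 56 in limma with a pseudocount of 10, 55 with a mean count of at least 10 and 54 when only entries above 0 in all 6 libraries were tested, the last 2 with fewer entries tested, and 56 to 106 with 1 library left out.

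Same-numbered libraries of the groups deviated together with correlations of 0.13, 0.05 and 0.24, so the numbers were not taken to pair the fish, although each library correlated best with its own number. With the replicate block the log2 fold change of the sum was 0.12 and 77 entries met the study's thresholds.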
